A study of Mus musculus with 8 samples.

Results

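Meg3, Rian, Mirg and Dlk1 are 4 genes of the imprinted Dlk1-Dio3 locus on mouse chromosome 12, and they were followed here in single nuclei of gastrocnemius, a calf muscle. They are 4 of the 21207 gene symbols that all 8 deposited matrices name. The genes were selected on these data, because Meg3 and its neighbours moved in both comparisons of the study, so their Old to Young and Running to Sedentary differences are given as a description without a test. All mice were C57BL/6 animals of the genotype WT. Young mice were 3 months old, Old mice 20 months, and Running and Sedentary mice came from a model that took mice of 11 months, of which the Running mice then trained on a treadmill for 2 months. Each group had 2 libraries of nuclei, replicate 1 from the 10x Genomics system and replicate 2 from the DNBelab C system of MGI. How many animals went into a library is not given in the sources used here, so the spread between the 2 libraries of a group holds the difference of the systems and may hold little biological variation.

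An imprinted gene is transcribed from 1 parental copy. At this locus Meg3, Rian and Mirg are long noncoding RNAs transcribed from the maternal copy in the same direction, and introns and exons of this transcribed stretch hold microRNAs and small nucleolar RNAs. Dlk1, which encodes a membrane ligand related to the Notch ligands, Rtl1, a protein derived from a retrotransposon, and Dio3, a thyroid hormone deiodinase, are transcribed from the paternal copy. Meg3 is known as a nuclear RNA, and the locus has been studied in muscle stem cells and in developing muscle.

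The 8 libraries held 64803 nuclei after filtering, with 23327640 to 44389777 unique molecular identifiers (UMIs, each a captured RNA molecule counted once) in a 10x library and 4765224 to 9088163 in a DNBelab library. Nuclei were clustered and named from marker genes, and a name ending in "-like" means only that. Of these nuclei, 40192 fell in 5 classes of nuclei of muscle fibres, namely Type IIb-like, Type IIa/IIx-like, Slow-like, myotendinous junction-like and neuromuscular junction-like. Old replicate 2 stood apart, with 4078 of its 4772 nuclei unnamed, and values that rest on it are also given without it. Pairs of 10x libraries shared 30 to 46 barcodes, at most 0.39% of the smaller library. The DNBelab files number their nuclei in place of barcodes, and 86.8% to 91.7% of these names recurred between libraries, which says nothing about shared nuclei.

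On GRCm38 (mm10), the build named in the labels, Meg3 lies at chr12:109541001-109571726 on the plus strand (GENCODE vM21). Rian starts 62939 bases downstream of the start of Meg3 and Mirg 188763 bases downstream, on the same strand. Dlk1 lies upstream of Meg3, at chr12:109452823-109463336. The 208460 bases from the start of Meg3 to the end of Mirg hold 59 microRNA genes and 23 small nucleolar RNA genes on that strand. Of the microRNA genes, 2 lie in Meg3, 4 in Rian and 14 in Mirg, and 25 lie between the noncoding RNA gene B830012L14Rik and Mirg. RefSeq lists 105 mature microRNAs for the span, of which 16 share their seed, bases 2 to 8 from the 5′ end, with 1 other of the span. The microRNAs themselves were not measured in these libraries. The 7 sequences that follow, RefSeq on GRCm38.p6 with the seed in capitals, show what the 3 host transcripts carry and where the same seed occurs at separate places of the locus.
mmu-miR-770-5p (in Meg3): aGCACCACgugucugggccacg
mmu-miR-370-5p (in Rian): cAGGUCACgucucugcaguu
mmu-miR-1193-3p (upstream of Mirg): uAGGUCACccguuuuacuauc
mmu-miR-379-5p (upstream of Mirg): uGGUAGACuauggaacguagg
mmu-miR-1193-5p (upstream of Mirg): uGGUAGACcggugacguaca
mmu-miR-453 (in Mirg): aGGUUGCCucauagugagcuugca
mmu-miR-496a-5p (in Mirg): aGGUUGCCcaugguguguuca
The seed of miR-370-5p, in Rian, is also that of miR-1193-3p. The seed of miR-379-5p is also that of miR-1193-5p, and miR-453 and miR-496a-5p share a seed within Mirg.

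The window of 250 bases before to 50 bases after the start of Meg3 is shown because Meg3, Rian and Mirg were found together in the nuclei described further on. It covers chr12:109540746-109541045 on the plus strand (RefSeq, GRCm38.p6), and capitals mark a full cAMP response element, TGACGTCA.
Meg3 start: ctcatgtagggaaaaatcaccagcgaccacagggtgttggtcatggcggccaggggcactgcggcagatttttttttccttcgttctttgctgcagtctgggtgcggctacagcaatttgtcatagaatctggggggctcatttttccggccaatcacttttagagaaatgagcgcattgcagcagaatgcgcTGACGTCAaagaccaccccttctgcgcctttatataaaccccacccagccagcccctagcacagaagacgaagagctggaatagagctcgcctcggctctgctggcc
The element begins at base 194 of the window. The letters TGACGTCA, which read the same on both strands, occurred in 588 of 32851 mouse windows of that length (1.79%), and not in the other window of Meg3 or those of Rian, Mirg and Dlk1. A match of letters is a description and not a bound site.

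Meg3 was the most abundant of the 4 genes in UMIs and Dlk1 the least, with 40213 UMIs of Meg3, 11088 of Rian, 1608 of Mirg and 183 of Dlk1 over all libraries. UMIs are not scaled for gene length here, so these totals rank molecules captured and not transcripts per gene. Levels are given as counts per 1000000 UMIs (CPM) of the library, or of the class in it. Meg3 reached 425 CPM in Young replicate 1 and 219 in Old replicate 1, and 85.3 in Young replicate 2 and 61.7 in Old replicate 2. In Running replicate 1 it reached 257 CPM, against 62.6 in Sedentary replicate 1, and in the DNBelab pair 86.4 in Running against 29.8 in Sedentary. In both library sets Meg3 was thus lower in Old than in Young and higher in Running than in Sedentary. Of the 10x libraries only Sedentary replicate 1 lay within the range of the DNBelab libraries, so levels were compared within a set.

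Rian, which hosts small nucleolar RNAs, stood at 40.8 CPM in Old and 146 in Young of the 10x set. In the DNBelab set it stood at 39.1 in Old and 27.5 in Young, so the order of Old and Young turned between the sets. Rian was at 57.8 CPM in Running and 20.4 in Sedentary of the 10x set, and at 21.2 and 10.9 in the DNBelab set. Mirg, the host of the most downstream microRNAs, followed Rian in all of these orders. Its levels were 6.1 in Old, against 18.8 in Young, and 10.0 in Running, against 3.90 in Sedentary of the 10x set, and 6.87, 2.97, 2.46 and 1.89 CPM in the same order of the DNBelab set. Dlk1 had 48, 56, 37 and 14 UMIs in Old, Young, Running and Sedentary of the 10x set and 16, 8, 3 and 1 in the DNBelab set. At such counts a difference in Dlk1 between Running and Sedentary was not detectable.

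**Figure D1:**
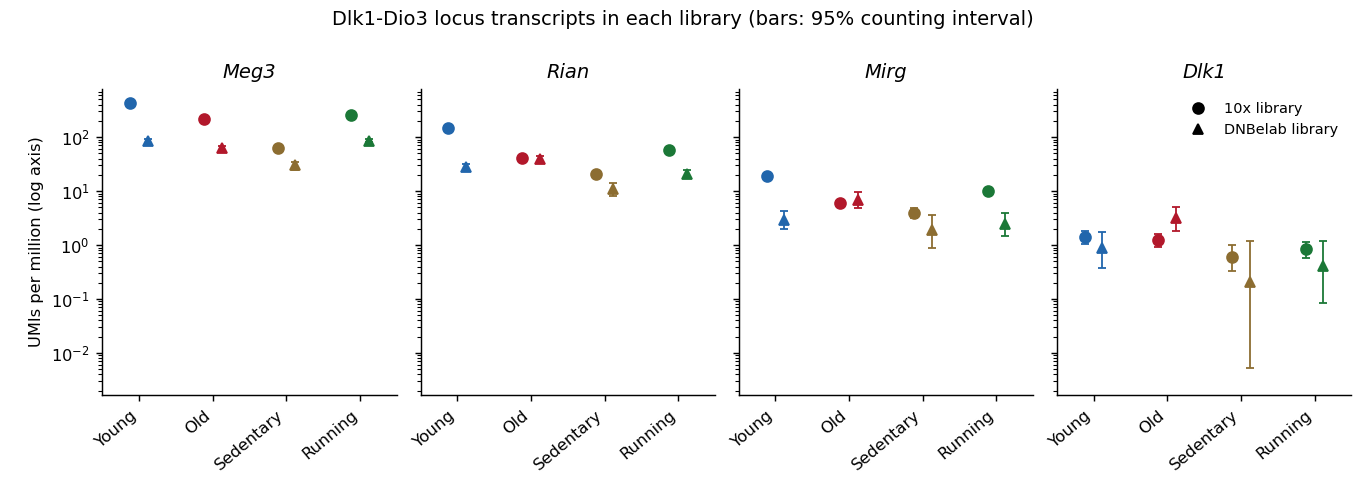
CPM of Meg3, Rian, Mirg and Dlk1 (UMIs per 1000000, log axis) in the 8 libraries, by group, with circles for 10x and triangles for DNBelab libraries and bars for the 95% exact Poisson interval of the count. Meg3 is lower in Old than in Young and higher in Running than in Sedentary in both sets, whereas the Old and Young DNBelab libraries change order for Rian and Mirg.

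Across the 8 libraries, with the library set as a term, the fitted log2 difference of Old against Young was -1.12 (SE 0.45) for Meg3, -1.16 (SE 0.53) for Rian, -0.68 (SE 0.73) for Mirg and 0.50 (SE 0.98) for Dlk1. That of Running against Sedentary was 1.76 (SE 0.46) for Meg3, 1.25 (SE 0.53) for Rian, 0.95 (SE 0.74) for Mirg and 0.61 (SE 1.04) for Dlk1. Meg3 therefore differed by 2.18-fold between Young and Old and by 3.40-fold between Running and Sedentary. These are the values that selected the genes. As background over the table of 20319 genes, from which nothing is read for the members, edgeR's quasi-likelihood test called none (0%) for Old against Young and none (0%) for Running against Sedentary at an adjusted p of 0.05. At an unadjusted p below 0.05 the same test gave 557 and 98 genes, and DESeq2 called 0 and 0, with 1174 and 392 at an unadjusted p below 0.05. The median gene differed by 0.19 between Old and Young on the log2 scale. Without Old replicate 2 the log2 differences of Old against Young were -0.85 for Meg3, -1.69 for Rian and -1.54 for Mirg. In such sums over a library, fewer nuclei of a type and less RNA per nucleus cannot be told apart.

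Levels of Meg3 were highest in some classes of mononuclear cells of the muscle. Muscle stem cell-like nuclei, which were seen in the 10x libraries alone, had the highest Meg3 levels, from 1332 CPM in Sedentary to 2237 in Young. Next came nuclei like fibro-adipogenic progenitors (FAPs), connective tissue cells that support regeneration, with 735 in Old, against 1533 in Young, and 777 in Running, against 297 in Sedentary of the 10x set. In the DNBelab set FAP-like nuclei had 1148 in Young, 924 in Running and 758 in Sedentary, and the 7 such nuclei of Old replicate 2 held no Meg3 UMI. The Young value rests on 121 Meg3 UMIs in 53 nuclei, 1 of which held 50 or more of them. In Type IIb-like nuclei, the largest class of fast fibres, the values were 11.5, 98.4, 166 and 8.99 CPM in Old, Young, Running and Sedentary of the 10x set. The DNBelab set had 101, 279, 82.1 and 14.3 in the same order, the first of which rests on 4 UMIs in 40 nuclei. Every FAP-like library with 20 nuclei lay above every Type IIb-like library for Meg3, but narrowly, with 297 CPM at the lowest against 279 at the highest. The value of 279, in Young replicate 2, rested largely on 2 nuclei with 121 and 108 of the 246 Meg3 UMIs. The share of all genes separated so was not computed, so nothing is read from this. FAP-like nuclei held between 25.5% and 72.6% of all Meg3 UMIs of a 10x library while making up 7.99% to 29.5% of its nuclei. In the DNBelab set they were few, and Type IIb-like nuclei held more. Of 633 Meg3 UMIs in Running replicate 2, 368 were in Type IIb-like and 67 in FAP-like nuclei. Young replicate 2 had 246 and 121 of 775, and Sedentary replicate 2 had 47 and 44 of 142.

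The members' distribution over classes was not used to select them and was tested with edgeR's quasi-likelihood test on sums per library and class, for 12431 genes. Meg3, Rian and Mirg passed the filter on low counts and Dlk1 did not. Against Type IIb-like nuclei, Meg3 was higher in FAP-like nuclei by 3.22 on the log2 scale (SE 0.43, adjusted p = 2.8e-09, edgeR). Rian was higher by 2.34 (SE 0.45, adjusted p = 1.2e-05, edgeR) and Mirg by 2.88 (SE 0.49, adjusted p = 9.8e-07, edgeR). Thus 3 of 3 members tested were higher, beside 26.9% of all genes tested. Rian overlapped between the classes, since Young replicate 2 had 37.9 CPM in FAP-like and 104 in Type IIb-like nuclei. Mirg stood at 16.7 to 55.1 in FAP-like and 0 to 9.55 in Type IIb-like nuclei. The share of all genes without overlap was not computed, so nothing is read from this. Counts were low, with 3 Mirg UMIs in Type IIb-like nuclei of Old replicate 1 and 2 in FAP-like nuclei of Young replicate 2. Of the 3 members, 2 were lower in adipocyte-like nuclei, Meg3 by a log2 difference of -1.48 (SE 0.52, adjusted p = 0.012, edgeR) and Rian by -1.91 (SE 0.62, adjusted p = 0.0069, edgeR), beside 22.5% of genes called lower. In neuromuscular junction-like nuclei 1 of 3 was lower, Meg3 with -2.09 (SE 0.72, adjusted p = 0.031, edgeR), beside 15.3%. No member was called in the other 4 contrasts, in which 52.6% (endothelial-like), 8.91% (myotendinous junction-like), 27.8% (Slow-like) and 13% (Type IIa/IIx-like) of genes were.

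The fit was repeated without nuclei of high Meg3, described further on. These nuclei were removed by their Meg3 count, so the values without them are a description, given with no test. With nuclei of 10 or more Meg3 UMIs left out, an alternative added after seeing the data, Meg3 differed by -0.17 in adipocyte-like nuclei (SE 0.30) and by 0.31 in neuromuscular junction-like nuclei (SE 0.43), against -1.48 and -2.09 with all nuclei. In the same fit the log2 differences of FAP-like nuclei were 5.24 for Meg3, 4.58 for Rian and 5.72 for Mirg. Endothelial-like nuclei differed by 1.75 (SE 0.26), 1.17 and 2.01 in that order, against -0.50, -1.25 and -1.06 with all nuclei. For Meg3, Slow-like nuclei differed by 0.76 (SE 0.29), against -1.02 with all nuclei. Myotendinous junction-like nuclei had -0.10, against -1.07, and Type IIa/IIx-like nuclei 0.03, against -0.47.

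In a fit of the 10x libraries alone with every class found there (13835 genes, added after seeing the data), Meg3 was higher in muscle stem cell-like nuclei than in Type IIb-like nuclei by 4.47 on the log2 scale (SE 0.54, adjusted p = 1.1e-09, edgeR), Rian by 3.2 and Mirg by 3.31. All 3 were called, beside 22.2% of genes called higher. All 3 were also called higher in pericyte-like nuclei, cells around small vessels, with 2.91, 1.82 and 2.45 in that order beside 21.3% of genes. Tenocyte-like nuclei, of tendon, were higher by 2.53, 1.71 and 2.05, beside 20.5%. Macrophage-like nuclei were lower in all 3, by log2 differences of -1.42, -2.11 and -3.74, beside 29.3%. The last value rests on 1 Mirg UMI in 1302 macrophage-like nuclei. Over all libraries, nuclei with 10 or more Meg3 UMIs held 6195 of the 7271 Meg3 UMIs of Type IIb-like nuclei. None of them was macrophage-like, and this fit was not repeated without them. The range of macrophage-like shares with a Meg3 UMI after thinning, given further on, did not lie below that of Type IIb-like nuclei.

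**Figure D2:**
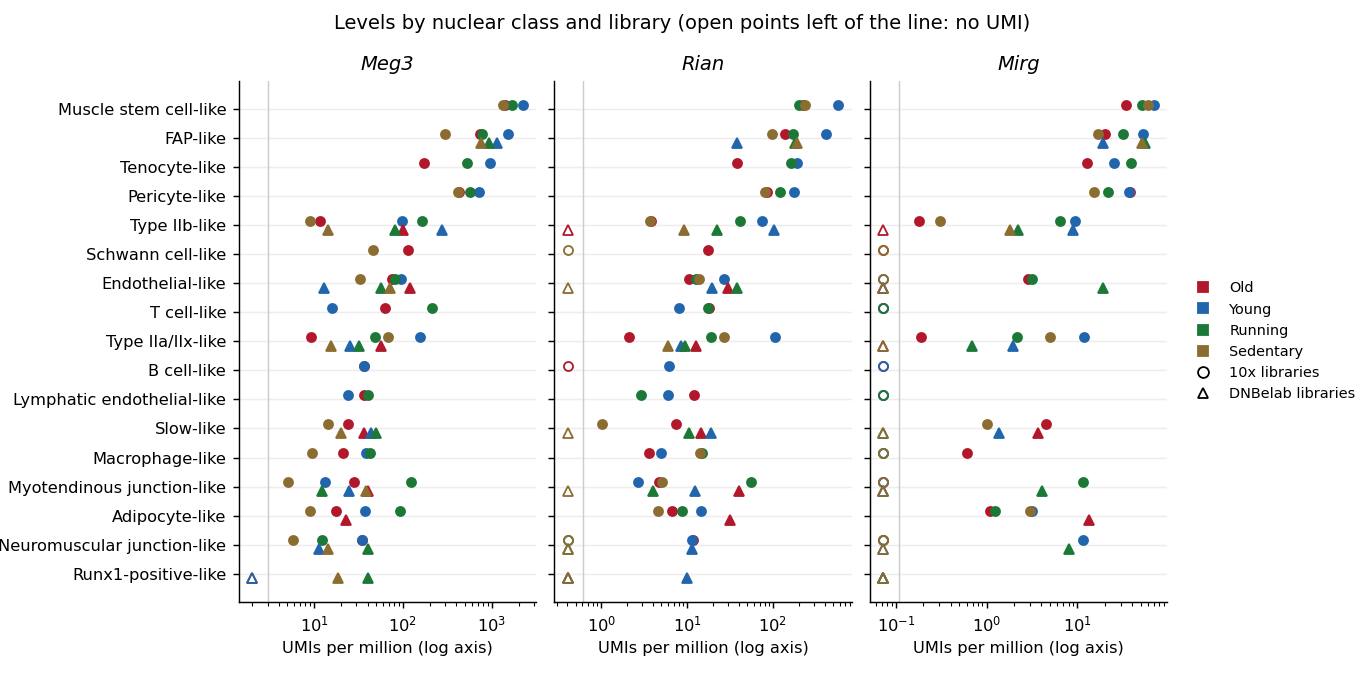
CPM of Meg3, Rian and Mirg (log axes) in each nuclear class and library with at least 20 nuclei, coloured by group, with circles for 10x and triangles for DNBelab libraries and open symbols for libraries without a UMI of the gene. Classes are ordered by their median Meg3 level, with muscle stem cell-like and FAP-like nuclei at the top, and Type IIb-like values spread over more than the range between most classes, from 8.99 to 279 for Meg3.

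In the share of nuclei with a UMI the classes also differed. Meg3 was found in 23.6% to 80.4% of FAP-like nuclei of the 10x libraries, at median depths of 1150 to 2668 UMIs per nucleus. It was found in 1.52% to 7.05% of macrophage-like nuclei, a class low in Meg3 that served for comparison, at median depths of 1123 to 2347. Type IIb-like nuclei, with 2.07% to 5.43% at median depths of 1905 to 3676, lay within that range. After thinning every nucleus to 500 UMIs the shares were 11.8% to 48.4% in FAP-like, 0.769% to 3.0% in macrophage-like and 0.370% to 1.40% in Type IIb-like nuclei. The share of Type IIb-like nuclei with a Meg3 UMI thus did not lie above that of macrophage-like nuclei, and no expression is read from it. It includes the nuclei of high Meg3 described next. Whether the other UMIs are background was not tested.

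A small number of muscle fibre nuclei held most of the Meg3 of their classes. Of 27277 Type IIb-like nuclei, 26228 had no Meg3 UMI, 932 had 1, 41 had 2 and 11 had 3 to 9, and then 23 had 10 to 49 and 42 had 50 or more. The count of nuclei was thus lowest at 3 to 9 UMIs and higher in the wider bins above it. FAP-like nuclei were graded instead, with 43.7% at 0, 27.2% at 3 to 9 and 2 of 9180 nuclei at 50 or more. None of the 1334 muscle stem cell-like nuclei reached 50, although 156 had 10 to 49. The limit of 10 UMIs, chosen after seeing these counts, is used below, and the nuclei above it were thereby selected on Meg3.

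**Figure D3:**
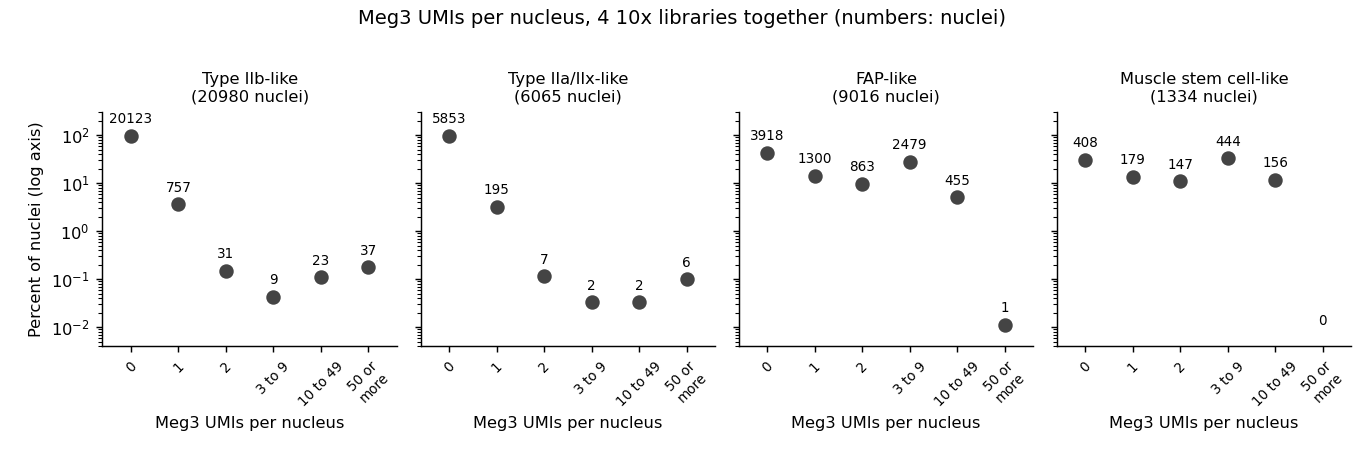
Percent of nuclei (log axis) by Meg3 UMIs per nucleus in 4 classes, 10x libraries together, with the number of nuclei above each point. Type IIb-like nuclei have a low of 9 nuclei at 3 to 9 UMIs and 37 nuclei at 50 or more, whereas FAP-like and muscle stem cell-like nuclei fill the range from 3 to 49 and have 1 and 0 nuclei above it.

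Over the 5 muscle fibre classes, 76 of 40192 nuclei (0.189%) had 10 or more Meg3 UMIs and held 7439 of the 9069 Meg3 UMIs of these classes (82.0%). The same 76 nuclei held 3297 of 3901 Rian UMIs and 471 of 528 Mirg UMIs, although Rian and Mirg were not used to select them. Of the 76, 72 had a UMI of Rian and 65 of Mirg, and none had 1 of Dlk1. They lay in 6 libraries, with 45 of 7587 nuclei in Young replicate 1 (0.593%, 95% Wilson interval 0.444 to 0.793) and 21 of 8261 in Running replicate 1 (0.254%, 0.166 to 0.388). Old replicate 1 had 2 of 5625 (0.0356%, 0.00975 to 0.13) and Sedentary replicate 1 had 2 of 7089 (0.0282%, 0.00774 to 0.103). In the DNBelab set there were 3 in Young and 3 in Running, and 0 of 429 in Old and 0 of 3919 in Sedentary, for which 3 counts of the total are 0.699% and 0.0765%, and the upper ends of the 95% Wilson intervals are 0.888% and 0.0979%. These intervals cover counting error only. Most of these nuclei thus lay in Young and Running, and the order of the groups was the one by which Meg3 had been selected. The limit is in UMIs, and the median depth of muscle fibre nuclei was 3741, 3261, 3382 and 1993 UMIs in Old, Young, Running and Sedentary of the 10x set, so the shares were not made at equal depth.

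The highest nuclei were few enough to weigh on whole libraries. In Running replicate 1, 1 Type IIb-like nucleus held 374 UMIs of Meg3, 201 of Rian and 14 of Mirg among 12625 in all. In Sedentary replicate 1, 2 Type IIa/IIx-like nuclei of 3910 and 3036 UMIs held 211 and 186 Meg3 UMIs, 14.5% and 12.7% of that library's Meg3. In Young replicate 2 the highest nucleus held 121 Meg3 UMIs, 15.6% of the library's. Muscle fibre nuclei outside the 76 had 8.35 CPM of Meg3 in Old, against 13.7 in Young, and 14 in Running, against 8.16 in Sedentary of the 10x set. With all nuclei of these classes the values were 12.2, 102, 136 and 30.5 in the same order. In the DNBelab set they were 47.2, 24.1, 30.9 and 15.3 outside, against 47.2, 63.7, 66.2 and 15.3 with all. Outside these nuclei the order of Old and Young in the DNBelab set therefore turned, with the Old value resting on 24 UMIs.

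**Figure D4:**
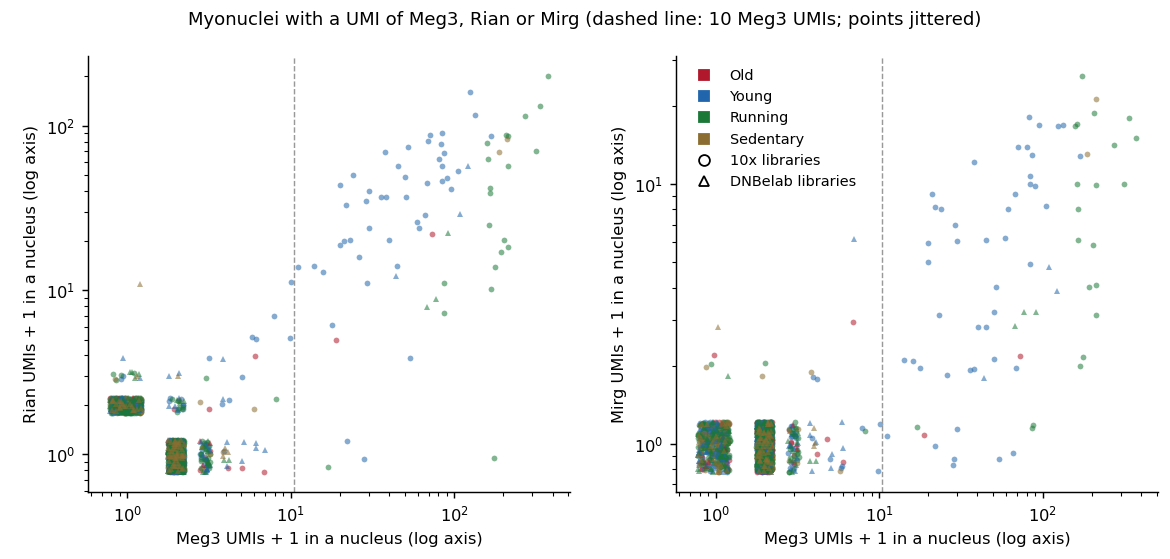
Rian (left) and Mirg (right) UMIs against Meg3 UMIs in each muscle fibre nucleus with a UMI of Meg3, Rian or Mirg, 1 added for the log axes and points jittered, with colours for groups and circles or triangles for 10x or DNBelab libraries. Nuclei right of the dashed line have 10 or more Meg3 UMIs, and 72 of these 76 also have Rian.

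The excess of UMIs in these nuclei was largest at genes of the locus, of all genes with at least 20 UMIs in them. UMIs in the 76 nuclei were set against the number expected from the level in the other muscle fibre nuclei of the same library. Rian had 3297 UMIs against 1.70 expected and Mirg 471 against 0.131. The noncoding RNA gene B830012L14Rik, which lies between them, had 631 against 0.349, and it was above expectation in 6 of 6 libraries. Gm34081, a noncoding RNA gene that starts upstream of Meg3 on the other strand, had 36 against 0.0713, in 2 of 6 libraries. Genes outside the imprinted stretch stayed near their expected numbers. Wdr25 had 10 UMIs against 7.62, Ppp2r5c, a phosphatase subunit, 41 against 30.4, and Slc25a47 17 against 14.6. Yy1, a transcription factor gene, had 12 against 24.4 (95% interval of the ratio 0.254 to 0.859, counting error only). Most of this gap lay in Young replicate 1, with 4 against 15.7, while Running replicate 1 had 7 against 7.06. Dlk1 had 0 UMIs against 0.0274 expected, which allows a ratio of up to 134.

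**Figure D5:**
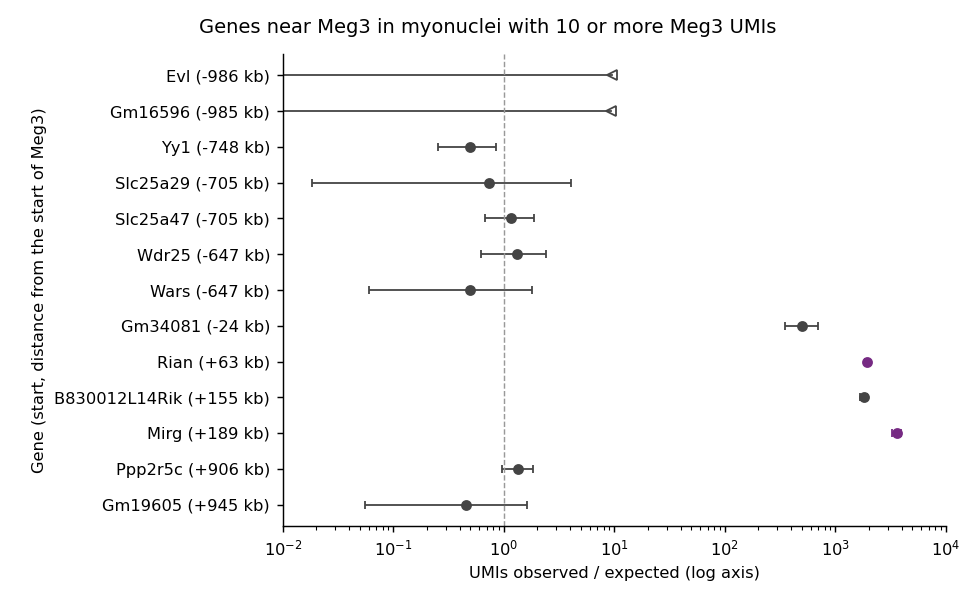
UMIs observed over expected (log axis) in the 76 muscle fibre nuclei with 10 or more Meg3 UMIs, for 13 genes within about 1 Mb of Meg3 (the rarest without a UMI are not drawn) ordered by the distance of their start from that of Meg3, with 95% Poisson intervals and arrowheads for upper limits of genes without a UMI. Gm34081, Rian, B830012L14Rik and Mirg, from -24.3 to 189 kb, lie at 505 or more, while genes farther out lie between 0.454 and 1.35 or have no UMI.

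Of the 2593 genes with at least 20 UMIs in these nuclei, 35 had 2 or more times the expected number and 9 had 4 or more times, and 5 of these 9 were Meg3, Rian, Mirg, B830012L14Rik and Gm34081. The other 4 were Sorcs1 (51 UMIs against 5.53, in 8 nuclei), A230057D06Rik (29 against 3.82), Scn2a (32 against 5.06) and Igfn1 (73 against 14.6, in 24 nuclei). Type IIb markers summed to 7249 UMIs against 6775 expected. Markers of FAPs summed to 38 against 35.2, those of muscle stem cells to 1 against 3.02, and 6 neuronal genes, a list chosen after seeing the data, to 12 against 11.1. Neat1, another abundant nuclear noncoding RNA, had 2024 against 2141, and Peg3, an imprinted gene of chromosome 7, had 112 against 71.2, a ratio of 1.57 (95% counting interval 1.29 to 1.89). Slow fibre markers were lower, with 19 against 68.0. Young replicate 2, with 3 of the 76 nuclei, held most of this gap, with 8 against 43.0. Young replicate 1, with 45 of the 76, had 6 against 6.1. Type IIa/IIx markers summed to 409 against 597 (ratio 0.685, interval 0.620 to 0.755). Here Running replicate 1 held most of the gap, with 104 against 265, while Young replicate 1 had 232 against 228. Neuromuscular junction markers summed to 40 against 59.3 (ratio 0.675, interval 0.482 to 0.919). The expected numbers pool the 5 muscle fibre classes, whereas 65 of the 76 nuclei were Type IIb-like. Whether the mix of classes accounts for these gaps was not tested. Median depth was 3863 UMIs in the 45 nuclei of Young replicate 1 and 4064 in the 21 of Running replicate 1, against 3261 and 3382 in all muscle fibre nuclei of these libraries. Markers of FAPs and muscle stem cells, the classes with the highest mean Meg3, were thus near or below the expected level.

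Over all classes, 751 of 64803 nuclei had 10 or more Meg3 UMIs and held 44.2% of the Meg3 UMIs. They included 457 FAP-like, 156 muscle stem cell-like and 33 unnamed nuclei. Of the unnamed ones, 13 of 14 in Old replicate 1, 7 of 7 in Running replicate 1 and 3 of 3 in Sedentary replicate 1 also had 10 or more UMIs of the 6 neuronal genes. In the other libraries with such unnamed nuclei, 0 of 1 in Young replicate 1, 0 of 3 in Old replicate 2, 0 of 3 in Young replicate 2 and 0 of 2 in Running replicate 2 had them. The highest Meg3 counts of Old replicate 1, 121 and 114 UMIs, were in such unnamed nuclei.

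With all 751 nuclei left out of the fit (added after seeing the data), the log2 differences of Old against Young were -0.37 for Meg3, -0.31 for Rian and 0.04 for Mirg. Those of Running against Sedentary were 0.97, 0.74 and 0.55. Meg3 was then 166 in Old and 228 in Young of the 10x set, but 48.3 in Old and 27.8 in Young of the DNBelab set. For Running against Sedentary the order held in both sets, with 124 against 40.5 and 44.3 against 29.8.

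The same comparisons were described within classes of the 10x set. In FAP-like nuclei Meg3 differed by a log2 value of -1.06 in Old against Young (95% counting interval -1.11 to -1.01) and by 1.39 in Running against Sedentary (1.24 to 1.55). In muscle stem cell-like nuclei it differed by -0.67 (-0.77 to -0.56) and 0.32 (0.12 to 0.53). In Type IIb-like nuclei it differed by -3.09 and 4.20, the widest of the 3 classes, and nuclei with 10 or more Meg3 UMIs held much of the count in both higher libraries. They held 2043 of 2370 Meg3 UMIs in Young (40 nuclei) and 3618 of 3956 in Running (19 nuclei), against 72 of 192 in Old (1 nucleus) and 0 of 88 in Sedentary. In the DNBelab set FAP-like nuclei differed by 0.29 in Running against Sedentary, with an interval of -0.28 to 0.87 that holds 0. With the classes given the same weights in both libraries of a pair, unnamed nuclei counted as 1 class, Meg3 differed by -1.10 in Old against Young and by 1.69 in Running against Sedentary of the 10x set, against -0.95 and 2.04 without weights. In the DNBelab set the same values were -0.56 and 1.46, against -0.47 and 1.54. For Rian in Old against Young of the DNBelab set the sign turned, from 0.51 without weights to -0.17 with them.

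Meg3 and Rian were found in the same nuclei more often than their shares alone would give. Among all retained nuclei, with the expected number summed within class and depth, 749 nuclei of Old replicate 1 had both, against 475 expected. Unnamed nuclei counted as 1 class here, so cell types mixed among them were not separated. This weighs most on Old replicate 2, with 4078 of 4772 nuclei unnamed. The other 10x libraries had 1450 against 1198 in Young, 668 against 408 in Running and 108 against 51.1 in Sedentary. The DNBelab libraries had 18 against 6.45 in Old, 19 against 5.25 in Young, 19 against 10.8 in Running and 9 against 4.72 in Sedentary. Ratios of observed to expected nuclei ran from 1.21 to 3.62, and every library was above 1. For Meg3 with Neat1 the ratio ran from 0.985 to 1.01. Neat1 was abundant, with 160984 UMIs in muscle fibre nuclei of Old replicate 1 under 10 Meg3 UMIs, a library with 5625 such fibre nuclei in all. A gene found in most nuclei has a ratio held near 1. The test against Neat1 below therefore says little more than that Meg3 with Rian was above 1. Sedentary replicate 2, with fewer than 5 expected, was left out of the tests. The log2 ratio of Meg3 with Rian exceeded that of Meg3 with Neat1 by 0.98 on average (SD 0.54, n = 7), in 7 of 7 libraries (exact sign-flip permutation test, two-sided p = 0.0156, adjusted p = 0.0313 over 2 comparisons). It exceeded that of Meg3 with Peg3 by 0.83 (SD 0.61, n = 6), in 6 of 6 libraries (exact sign-flip permutation test, p = 0.0313, adjusted p = 0.0313). Both p-values are the smallest that these numbers of libraries can give. The test planned for Type IIb-like nuclei thinned to 500 UMIs could not be fitted, since under 5 nuclei with both genes were expected in every library, so this setting was chosen after seeing the data. FAP-like nuclei thinned to 500 UMIs had ratios for Meg3 with Rian of 1.96 in Old, against 1.33 in Young, and 2.01 in Running, against 2.64 in Sedentary of the 10x set.

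The number of Rian UMIs per Meg3 UMI was 0.186 in Old, against 0.343 in Young, and 0.225 in Running, against 0.326 in Sedentary of the 10x set, and 0.634, 0.323, 0.245 and 0.366 of the DNBelab set. Old replicate 2 was the highest, and without it the difference between the sets was -0.23 for Rian and 0.06 for Mirg. The mean log2 ratio was -1.94 in the 10x set (SD 0.43, n = 4) and -1.44 in the DNBelab set (SD 0.58, n = 4), a difference of -0.49 (exact permutation test, two-sided p = 0.2, adjusted p = 0.4). For Mirg the means were -4.59 (SD 0.48, n = 4) and -4.28 (SD 0.89, n = 4), a difference of -0.31 (exact permutation test, p = 0.571). The smallest p that 4 against 4 libraries allow is 0.0286, and neither difference between the systems passed the test. In Type IIb-like nuclei the Rian to Meg3 ratio was 0.328, 0.76, 0.249 and 0.409 in Old, Young, Running and Sedentary of the 10x set. In FAP-like nuclei it was 0.187, 0.268, 0.222 and 0.330, so of these 4 libraries Young replicate 1 had the widest gap between the classes.

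Dlk1 UMIs were few and lay mostly in FAP-like nuclei. Of its 183 UMIs, 109 were in FAP-like nuclei of the 10x set, at 3.18 to 6.19 CPM, against 0.0415 to 0.408 in Type IIb-like nuclei. Type IIa/IIx-like and macrophage-like nuclei of the 10x set had none. In Old replicate 2, the library with the highest Dlk1 level (3.14 CPM), 16 UMIs came from 16 nuclei, mostly unnamed. Rtl1 and Dio3os, the antisense partner of Dio3, are not named in all 8 files. Rtl1 had 70, 177, 110 and 28 UMIs in Old, Young, Running and Sedentary of the 10x set, the order of Rian. It is transcribed against a maternally expressed antisense RNA, and the counting is not stated to use strand, so the partners cannot be told apart. Dio3os had 235, 41, 80 and 22 UMIs in the same order, the highest being in Old. Dio3 had 14, 3, 4 and 3.

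Of the 19 genes within about 1 Mb of the start of Meg3 that all files name, 12 were tested in FAP-like against Type IIb-like nuclei and 5 were called higher with edgeR. These were Meg3, Rian, Mirg, B830012L14Rik (log2 difference 2.84, SE 0.42) and Evl (2.41, SE 0.43), a regulator of actin filaments. The 3 lower ones were Slc25a47 (-1.0), Gm19605 (-0.77) and Slc25a29 (-0.76). The median of the 12 was -0.15, against -0.12 over all genes, of which 59.5% were called in either direction. In muscle stem cell-like nuclei of the 10x set 6 of 12 were higher and 1 lower, again with Meg3, Rian, Mirg, B830012L14Rik (3.52) and Evl (4.93), and with Degs2 (3.25). Over all genes of that contrast 22.2% were higher and 46.0% were called in either direction.

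Genes known to act on imprinted loci, on Meg3 or in microRNA processing were described from lists. None of the 13 regulators, 9 microRNA processing genes and 21 imprinted genes of other loci tested was called in Old against Young or in Running against Sedentary with edgeR. This stands beside 0% of all 20319 genes in both comparisons, so nothing is read from it about the lists. In FAP-like against Type IIb-like nuclei 2 of 13 regulators were higher and 7 lower (edgeR, median -0.42), beside 26.9% of all genes higher, 59.5% called in either direction and a median of -0.12. Aff3, which binds imprinted control regions, was higher by 3.8 (SE 0.33), and Mef2c, a muscle transcription factor, was lower with -2.04 (SE 0.24), as was the DNA methyltransferase gene Dnmt3a with -1.12 (SE 0.15). Of 9 microRNA processing genes 1 was higher, Ago4 (0.93), and 2 were lower, Xpo5 (-1.13), which exports microRNA precursors, and Ago3 (-0.36). Of 17 imprinted genes of other loci 6 were higher, led by Plagl1 (4.65), Sgce (2.18) and Grb10 (1.01), and 4 lower. In muscle stem cell-like nuclei 10 of 18 imprinted genes were higher and 3 lower, led by Zim1 (4.43), Gnas (2.19) and Nap1l5 (4.53). Over all genes 46.0% were called in that contrast, and no list was tested as a list.

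Over the 8 libraries, centred within each set, the genes whose level followed that of Meg3 most closely were Atp5e (Pearson r 0.955), Atp5o (0.95), Nfic (0.949), Chchd10 (0.947) and Cox8b (0.934), of 4805 genes ranked. Rian was the 16th of these genes, with 0.867. In Type IIb-like nuclei they were Tpm2 (0.952), Myom1 (0.936), Amotl1 (0.934), Crtc3 (0.911) and Alpk2 (0.906), of 3899. All points share their libraries and depth, and no relation is read from these values.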

How the data were processed

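Single-nucleus RNA of mouse gastrocnemius was measured in 8 libraries. The authors deposited matrices of UMI counts per gene and nucleus, aligned to mm10. Per the labels Cell Ranger 6.1.2 and Seurat 4.1.1 were used, and the DNBelab libraries were processed with PISA. Of 65280 deposited nuclei, 64803 were retained by their number of genes (above 200, below 6000) and mitochondrial UMIs (below 6%). They were clustered per library set with scanpy 1.11.5 and leidenalg 0.10.2 (2000 variable genes without those of the locus, 30 components, 20 neighbours, resolution 1.0) and named from marker lists. Limits for naming were set after seeing the data. No doublet caller was run, and leaving out the 6% of nuclei with the highest totals was an alternative. Counts summed per library, or per library and class with at least 20 nuclei, were tested with edgeR 4.0.16 (TMM, filterByExpr, quasi-likelihood F-test, Benjamini-Hochberg, 0.05) in R 4.3.3, with the library set or library as a term. DESeq2 1.42.0 was an alternative. Ratios and co-detection were tested by exact permutation in scipy 1.17.1. Gene positions came from GENCODE vM21 (20782 of 21207 symbols matched).

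Genes were named by rule, which took the 4 members, genes within 1 Mb of Meg3, the 5 genes most correlated with Meg3 in each of 2 settings, and up to 3 genes of smallest p per list. The members and lists were chosen with earlier results of these data known. On simulated data with 200 changed genes, the Old against Young test on 20621 genes recovered 1% of 4-fold and, on 20515 genes, 79% of 16-fold changes, and the FAP-like against Type IIb-like test on 17036 genes recovered 32% of 4-fold changes. Total counts ranged from 4765224 to 44389777 per library. Alternatives were other scaling, filters, terms, thinning to 500 UMIs, clustering and each library left out.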

Additional observations from a re-analysis of the deposited data

Results flagged for a closer look

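Rian and Mirg differed in opposite directions between Old and Young in the 2 library sets. For Rian the log2 difference was -1.839 in the 10x pair and 0.5067 in the DNBelab pair (95% counting interval 0.23 to 0.78). For Mirg it was -1.622 and 1.21 (interval of the latter 0.44 to 1.99). Each set has 1 library per group, so the difference between the sets was not tested. Old replicate 2, in which 85.5% of nuclei were unnamed, is the Old library of the DNBelab pair, and its part in the result was not tested. With the classes, unnamed nuclei among them as 1 class, given the same weights in both libraries, the DNBelab values were -0.17 for Rian and 0.49 for Mirg.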

How the results depend on the processing

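Replicate numbers follow deposition order. No paired analysis was possible because no label pairs libraries across groups, and the library set was already a term. Of 229 alternatives for the members' log2 differences, 6 had another sign. Old against Young ranged from -1.57 to -0.37 for Meg3, -1.88 to -0.29 for Rian, -1.54 to 0.24 for Mirg and -0.53 to 1.29 for Dlk1. Running against Sedentary ranged from 0.97 to 2.44 for Meg3, 0.74 to 1.64 for Rian, 0.51 to 1.33 for Mirg and 0.16 to 1.39 for Dlk1. With only the 4 libraries of a comparison, edgeR called 4 genes in the age comparison and 82 in the running comparison, in place of 0. With 1 library left out the counts ran from 0 to 8, with 8 without Sedentary replicate 1 and 4 without Sedentary replicate 2, and from 0 to 418, with 418 without Sedentary replicate 2. Member calls between classes numbered 6, but 3 in the 10x libraries only, 10 without the filter on low counts and, with 1 library left out, as few as 3 (without Young replicate 1). FAP-like calls of Meg3, Rian and Mirg held in all 16 alternatives each. Among these is the fit without nuclei of 10 or more Meg3 UMIs, which is a description and no test. Without nuclei of 10 or more Meg3 UMIs, Rian in adipocyte-like nuclei was 0.30 and Meg3 in neuromuscular junction-like nuclei 0.31, both of the opposite sign; the latter call was also lost in 9 other settings. With 1 library left out the Mirg to Meg3 difference ran from -0.594 to 0.063, the latter, of the opposite sign, without Old replicate 2. The co-detection difference against Neat1 was 2.85 thinned over all nuclei (3 libraries) and 2.28 in Type IIb-like nuclei (2 libraries), and against Peg3 2.24 and 2.25, none with enough libraries to pass. With 1 library left out it ran from 0.836 to 1.10 for Neat1 and 0.601 to 0.946 for Peg3. The direction held, but the calls mostly did not. The adjusted p (exact sign-flip permutation test) was then 0.0625 for Peg3 in each case, the smallest that so few libraries can give. For Neat1 it was 0.0625 as well, except 0.0313 without Old replicate 2, where only 1 comparison was adjusted. The causes were not tested. Thinning to 1000 UMIs and the coarser clustering gave no eligible library for co-detection in Type IIb-like nuclei. Dlk1, with 183 UMIs, did not pass the filter on low counts in the class fits.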
